A study of Ovis aries with 8 samples.

Results

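Vasopressin and oxytocin transcripts were followed in the mediobasal hypothalamus of ewes, as the rows of the count table whose symbols are AVP (gene ID 443477) and OXT (gene ID 443390), 2 of 33609 genes listed. Vasopressin and oxytocin are nonapeptide hormones, each cut from a precursor that also holds a neurophysin carrier protein. They are made mainly by the large (magnocellular) neurons of the supraoptic and paraventricular nuclei, whose axons run through the median eminence to the posterior pituitary. Vasopressin retains water and raises blood pressure, and oxytocin acts in birth, milk ejection and maternal behaviour. Smaller vasopressin neurons lie in the suprachiasmatic nucleus, and smaller neurons of both kinds in the paraventricular nucleus project within the brain.

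The animals were adult Ile-de-France ewes, either food-restricted or fed ad libitum (well fed), 30 of each in each of 2 years. Each library was built from an equimolar random mix of RNA from 15 ewes, and each group had 4 such pools, so that n counts pools throughout. No genotype, drug or transgene is named in the labels. The sources used here do not give the degree and length of the restriction, or in which year a pool's animals were studied. The labels call the pools biological replicates and leave unsaid if an animal could enter several of them, and p-values measure the spread between these pools. The 8 pools held between 36192025 and 48125991 counts each, and 18193 genes had enough counts for the test. The first principal component of the tested genes other than AVP and OXT held 34.6% of the variance and set food-restricted pools 1 and 2 and well-fed pools 3 and 4 on 1 side and the other 4 pools on the other.

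AVP and OXT had been selected on their counts in these same 8 pools, food-restricted against well-fed, and on the spread between pools of a group, so the levels, the difference between feeding groups and the spread that follow are a description with no test. AVP varied widely between pools of the same feeding group. It was at 127, 236, 35.0 and 72.2 CPM (counts per library size, scaled with TMM) in food-restricted pools 1 to 4, against 26.4, 30.8, 148 and 213 CPM in well-fed pools 1 to 4. Food-restricted pool 2 was the highest and well-fed pool 1 the lowest, and the groups overlapped throughout. OXT had the same order of pools and a wider range. It was at 15.0, 52.7, 2.17 and 6.02 CPM in food-restricted pools 1 to 4, against 0.857, 1.07, 26.4 and 36.6 CPM in well-fed pools 1 to 4. In both genes food-restricted pools 1 and 2 and well-fed pools 3 and 4 held the 4 highest values.

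**Figure D1:**
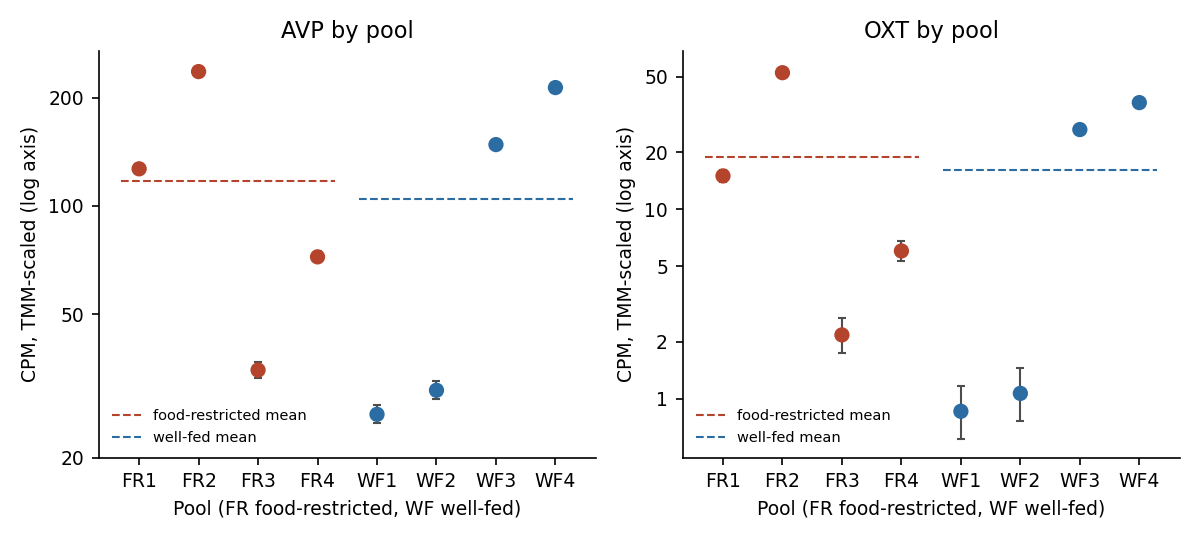
Level of AVP (left) and OXT (right) in each pool, in TMM-scaled CPM on a log axis, with food-restricted pools (FR1 to FR4) left of well-fed pools (WF1 to WF4). Bars are exact 95% Poisson intervals of the count and dashed lines are group means; each group spans almost the whole range, from 35.0 to 236 CPM in food-restricted and from 26.4 to 213 CPM in well-fed pools for AVP.

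Counting error was small beside these differences. The lowest OXT value rested on 39 counts in well-fed pool 1 (exact 95% Poisson interval 27.7 to 53.3) and the highest on 2200 counts in food-restricted pool 2 (2109 to 2294). AVP had at least 1185 counts in every pool, that value in well-fed pool 2 (1118 to 1254). These intervals cover counting error only, since the reads carry no molecular identifiers. Within food-restricted pools the highest value was 6.74 times the lowest for AVP and 24.3 times for OXT. Within well-fed pools it was 8.07 times for AVP and 42.7 times for OXT.

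No difference between the feeding groups stood out from this spread. AVP averaged 118 ± 87.6 CPM with food restriction and 105 ± 91.7 CPM in the well-fed group (SD, n = 4 each). Its log2 fold change was 0.17 (SE 0.70), which is 1.12-fold, with 0.692-fold to 1.83-fold at 1 SE on either side. OXT averaged 19.0 ± 23.1 CPM with food restriction and 16.2 ± 18.1 CPM in the well-fed group (SD, n = 4 each). Its log2 fold change was 0.23 (SE 1.14), which is 1.17-fold, with 0.529-fold to 2.59-fold at 1 SE. The medians of OXT were at 10.5 CPM in food-restricted and 13.7 CPM in well-fed pools, the other way round from the means. The sign of the difference rested on single pools. Without food-restricted pool 2 the log2 fold change was -0.41 for AVP and -1.06 for OXT, without well-fed pool 1 it was -0.15 and -0.17, and without well-fed pool 2 it was -0.14 and -0.16. Without well-fed pool 4 it was 0.78 for AVP and 1.00 for OXT. With the score on the first principal component as a covariate, an alternative chosen after seeing the data, it was 0.29 (SE 0.23) for AVP and 0.43 (SE 0.43) for OXT. In bulk tissue, fewer cells of a type and less RNA per cell cannot be told apart.

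The spread within groups was among the widest of the transcriptome. The pooled within-group SD of log2 CPM was 1.37 for AVP and 2.45 for OXT, where the median of all 18193 tested genes was 0.27. OXT ranked 4 from the top and AVP 549. Since spread depends on level, each gene was also set beside the 200 genes nearest to it in mean level. Of these, 199 had a smaller SD than AVP (their median 0.18) and 200 a smaller SD than OXT (their median 0.30).

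**Figure D2:**
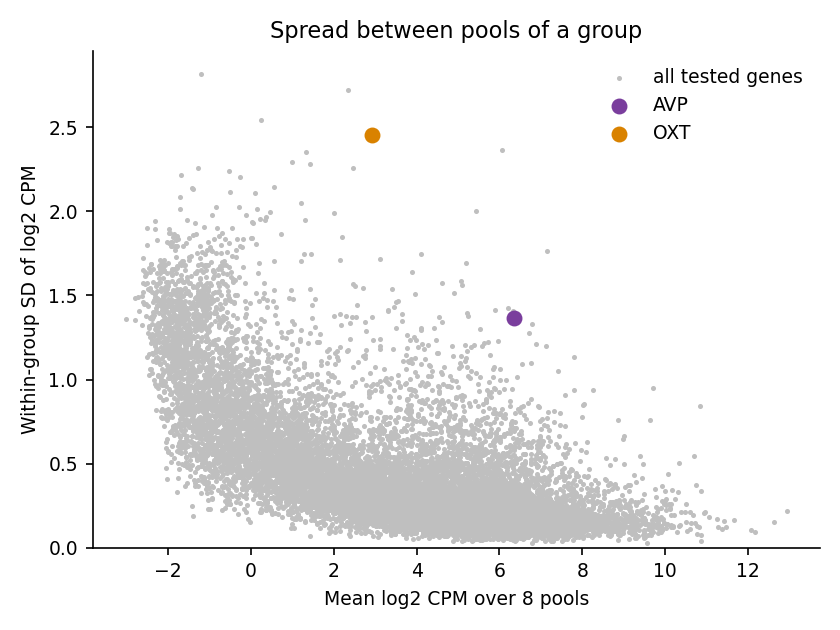
Pooled within-group SD of log2 CPM against mean log2 CPM over the 8 pools, each grey point being 1 of the 18193 tested genes. OXT (SD 2.45) and AVP (SD 1.37) lie far above most genes of similar level.

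OXT and AVP varied together. Over the 8 pools, Pearson's r of their log2 CPM was 0.995 and Spearman's rho was 1, given with no test since the values of these pools had chosen both genes. On the log2 scale the widest gap between neighbouring pools, from food-restricted pool 3 to food-restricted pool 4, was 1.04 for AVP and 1.45 for OXT. That gap set well-fed pools 1 and 2 and food-restricted pool 3 below the others and did not part the 4 high from the 4 low pools. Whether the pools form clusters was not tested. Without well-fed pools 1 and 2, the farthest from the median of AVP, r was 0.994, and for deviations from the group means it was 0.995. OXT moved by 1.79 log2 units for each log2 unit of AVP. Both values of a pool come from the same library. Against the mean of AVP and OXT, 1545 other genes had an r of at least 0.9, as given below. In cattle and rats the middle parts of the AVP and OXT genes are nearly identical in sequence, and the sources used here do not say how reads that match several genes were counted. The share of counts that could have passed between both genes is thus unknown.

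**Figure D3:**
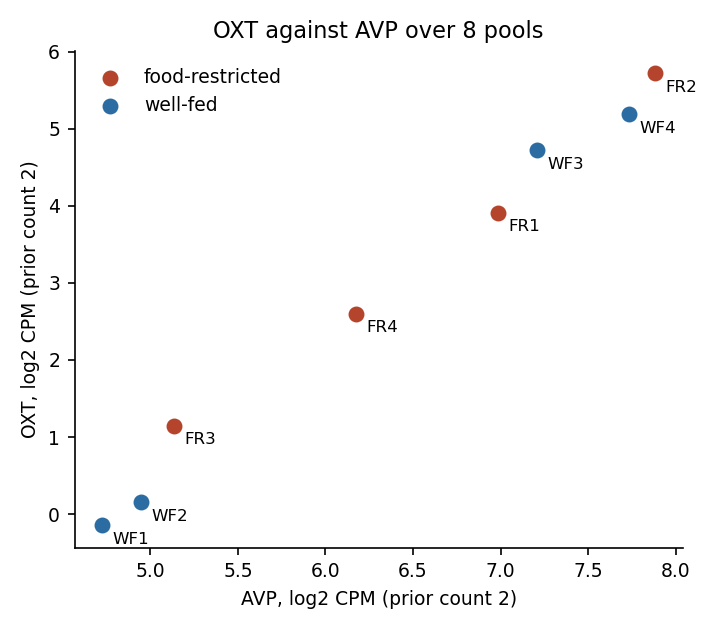
OXT against AVP in the 8 pools, both in log2 CPM with a prior count of 2, food-restricted pools (FR) in red and well-fed pools (WF) in blue. The points lie near a line (r = 0.995) on which the feeding groups mix.

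The ratio of AVP to OXT counts shifted with their level. It was 8.45, 4.48, 16.2 and 11.99 in food-restricted pools 1 to 4, against 30.8, 28.9, 5.61 and 5.82 in well-fed pools 1 to 4. The pools with little of both transcripts had the highest ratios. The log2 ratio averaged 3.21 ± 0.80 in food-restricted and 3.71 ± 1.38 in well-fed pools (SD, n = 4 each), a difference of -0.50 (SE 0.80). The counts are not corrected for transcript length, so the ratio is compared between pools and is no measure of molecules.

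AVP and OXT are neighbours in RefSeq's list of genes for ARS-UI_Ramb_v3.0, a sheep assembly, with 0 genes between them. That list holds a long non-coding RNA, LOC121816177, that overlaps AVP and is not analysed here. Of the next 2 genes on the side of OXT, MRPS26, a mitochondrial ribosomal protein gene, had at most 5 counts in any pool and was not tested, so that it gives no profile. The other, the transcribed pseudogene GNRH2P, ran between 0.490 and 1.62 CPM in food-restricted pools and between 1.66 and 1.98 CPM in well-fed pools. These ranges did not overlap, as for 1.60% of all tested genes, and its log2 fold change was -0.61 (SE 0.39). GNRH2P had an r of 0.04 with the mean log2 CPM of AVP and OXT (n = 8 pools).

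The genes most like AVP and OXT over the 8 pools were not peptide genes. Likeness was measured as Pearson's r with the mean log2 CPM of AVP and OXT, among genes with symbols and a mean of at least 1 CPM. It is a description over 8 libraries, and all genes of a pool were read from the same library. The 10 highest were ARPC1B (r = 0.998), a subunit of the complex that branches actin filaments, DEAF1 (0.996), a transcription factor, TCIRG1 (0.996), a subunit of the vacuolar proton pump, YDJC (0.994), NDOR1 (0.993), a flavin oxidoreductase, RHBDL1 (0.993), CCDC106 (0.992), NELFB (0.992), a subunit of the negative elongation factor, SCAF1 (0.992) and CAPN10 (0.992), a calpain protease. ARPC1B was at 65.6, 87.8, 33.5 and 46.9 CPM in food-restricted pools 1 to 4, against 27.6, 29.3, 77.3 and 82.9 CPM in well-fed pools 1 to 4. These genes were high and low in the same pools over a smaller range. Their highest pool was between 2.38 times (TCIRG1) and 6.27 times (CAPN10) their lowest, where it was 8.94 times for AVP and 61.5 times for OXT. The 5 genes with the lowest r were TRIP12 (-0.983), a ubiquitin ligase, CDS2 (-0.980), an enzyme of phospholipid synthesis, ZMAT1 (-0.977), VPS33A (-0.973), which acts in fusion with lysosomes, and MGA (-0.972), a transcription factor, and their highest pool was at most 1.66 times their lowest (ZMAT1).

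Many other genes shared this profile. Of 15827 tested genes with a mean of at least 1 CPM besides AVP and OXT, 1545 (9.76%) had an r of at least 0.9 and 304 (1.92%) an r of -0.9 or below. At the level used for the lists that follow, 15.9% had an r of at least 0.8 and 8.66% an r of -0.8 or below. Of those 1545, 61 had a within-group SD at least that of AVP and 2 at least that of OXT. The first principal component, computed without either gene, had an r of 0.92 with their mean (n = 8 pools), and the part of what it captures in the spread of AVP and OXT was not tested. The base composition of these transcripts was not analysed here, and its part in the shared profile was not tested.

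**Figure D4:**
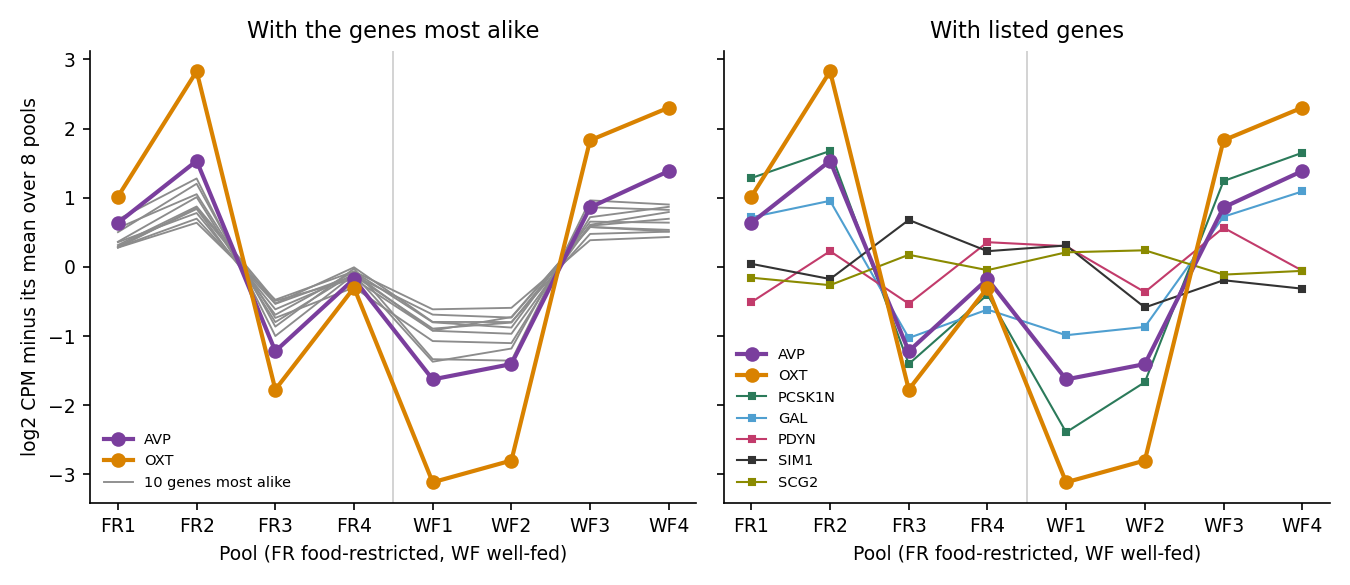
Level of AVP and OXT in each pool as log2 CPM minus its mean over the 8 pools, food-restricted pools (FR) left of well-fed pools (WF). The 10 genes most alike (left, grey) follow the same pools over a smaller range; of the listed genes (right), PCSK1N (r = 0.99) and GAL (r = 0.96) follow them, while PDYN (0.28), SIM1 (-0.35) and SCG2 (-0.93) do not.

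The receptors were scarce. Vasopressin acts on blood vessels and brain through AVPR1A, on pituitary corticotrophs through AVPR1B and on the kidney through AVPR2, and oxytocin acts through OXTR. AVPR1A was at 3.42, 1.80, 1.07 and 0.712 CPM in food-restricted pools 1 to 4, against 1.08, 0.390, 2.65 and 1.91 CPM in well-fed pools 1 to 4, a log2 fold change of 0.21 (SE 0.61). AVPR2 averaged 2.70 ± 1.90 CPM in food-restricted and 2.72 ± 0.41 CPM in well-fed pools (SD, n = 4 each), or a log2 fold change of -0.01 (SE 0.41). AVPR1A had an r of 0.73 with the mean of AVP and OXT and AVPR2 an r of 0.64. OXTR had 15, 9, 0 and 0 counts in food-restricted pools 1 to 4, against 12, 21, 7 and 2 in well-fed pools 1 to 4, and fell below the filter on low counts. AVPR1B was listed at 0 in all 8 pools, which leaves room for up to 3 counts, or between 0.0625 and 0.0844 CPM by pool.

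Of the 49 genes in 5 lists for the vasopressin and oxytocin system, 44 were tested and 0 passed in either direction (edgeR quasi-likelihood, adjusted over all genes), with DESeq2 and limma voom also calling 0. Over all tested genes 0.00550% passed, which was AGRP alone, the hunger peptide of the arcuate nucleus (edgeR adjusted p = 0.0296). At an unadjusted p under 0.05 there were 2 of the 44, PCSK1 and CARTPT, and 309 of all 18193. The fold change was above 0 for 19 of the 44 and below 0 for 25 (median log2 fold change -0.02), where all tested genes had a median of 0.01. For 1 of the 44, CALB1, the groups had no overlap, as for 1.60% of all tested genes.

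In precursor processing and secretory granules, 0 of 13 tested genes passed and 5 were above and 8 below 0 (median log2 fold change -0.03). PCSK1, a convertase that cuts hormone precursors, averaged 301 ± 29.3 CPM in food-restricted and 364 ± 27.3 CPM in well-fed pools (SD, n = 4 each), or a log2 fold change of -0.28 (SE 0.10), with overlapping pools. The granins CHGB and SCG2 were at -0.18 (SE 0.09) and -0.14 (SE 0.12), and SYT4, a vesicle protein, at 0.13 (SE 0.16). Along the pools 3 of the 13 had an r of at least 0.8 with AVP and OXT, beside 15.9% of all genes at a mean of 1 CPM or more, and 3 an r of -0.8 or below, beside 8.66%. The 3 with high r were PCSK1N, which inhibits PCSK1 (r = 0.99), CHGA, another granin (0.90), and VGF, a secreted neuronal precursor (0.86). PCSK1N was at 348, 457, 54.0 and 108 CPM in food-restricted pools 1 to 4, against 27.3, 45.0, 338 and 449 CPM in well-fed pools 1 to 4, the order of AVP except that food-restricted pool 1 lay above well-fed pool 3. The 3 with low r were SCG2 (-0.93), PAM, which adds the amide that ends both hormones (-0.83), and SYT4 (-0.80). The choice to name PCSK1N, CHGA, VGF and PAM was made with their values in view. The list's median r was -0.61, where that of all tested genes was -0.10.

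Of the 10 peptides that vasopressin or oxytocin neurons have been found to make as well, 0 passed, with 4 above and 6 below 0 (median log2 fold change -0.02). CARTPT averaged 93.2 ± 18.6 CPM in food-restricted and 159 ± 70.4 CPM in well-fed pools (SD, n = 4 each), or a log2 fold change of -0.77 (SE 0.28), and PDYN, the dynorphin precursor that vasopressin neurons store, was at -0.21 (SE 0.25). TRH and CRH, releasing hormones of smaller paraventricular neurons, were at 0.12 (SE 0.22) and -0.11 (SE 0.40). In this list 6 of 10 genes had an r of at least 0.8 (median 0.81), beside the 15.9% of all genes. The list was chosen with earlier results of these data known, so this count is a description with no test. GAL, galanin, came first (r = 0.96) and was at 26.4, 31.2, 7.89 and 10.5 CPM in food-restricted pools 1 to 4, against 8.11, 8.81, 26.6 and 34.2 CPM in well-fed pools 1 to 4. CCK, cholecystokinin, which oxytocin neurons store, had an r of 0.86. PDYN did not follow, with an r of 0.28, and was at 19.6, 32.8, 19.3 and 35.8 CPM in food-restricted pools 1 to 4, against 34.4, 21.7, 41.4 and 26.9 CPM in well-fed pools 1 to 4. NUCB2, the nesfatin precursor, went the other way (r = -0.72). GAL, CCK and NUCB2 were named after their values were seen.

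Transcription factors of magnocellular and paraventricular neurons were listed as well. Whether their levels follow the number of such neurons in a pool was not tested. SIM1, ARNT2, POU3F2 and OTP are needed in mice for these neurons to form. Of 5 tested factors 0 passed (median log2 fold change -0.03). SIM1 was at 0.39 (SE 0.25), POU3F2 at 0.17 (SE 0.15), ARNT2 at -0.06 (SE 0.11) and NHLH2 at -0.26 (SE 0.36). SIM1 was at 5.99, 5.15, 9.31 and 6.81 CPM in food-restricted pools 1 to 4, against 7.21, 3.87, 5.09 and 4.67 CPM in well-fed pools 1 to 4. Its highest value was in a pool with little AVP and OXT, and its r with them was -0.35. ARNT2 (-0.46) and POU3F2 (-0.52) also had r below 0, while OTP, at 3.51, 6.61, 1.73 and 3.87 CPM in food-restricted pools against 2.48, 2.29, 6.44 and 4.87 CPM in well-fed pools 1 to 4, had an r of 0.89 and was named after its values were seen. The oestrogen receptor ESR2 had at most 32 counts in any pool and was not tested.

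**Figure D5:**
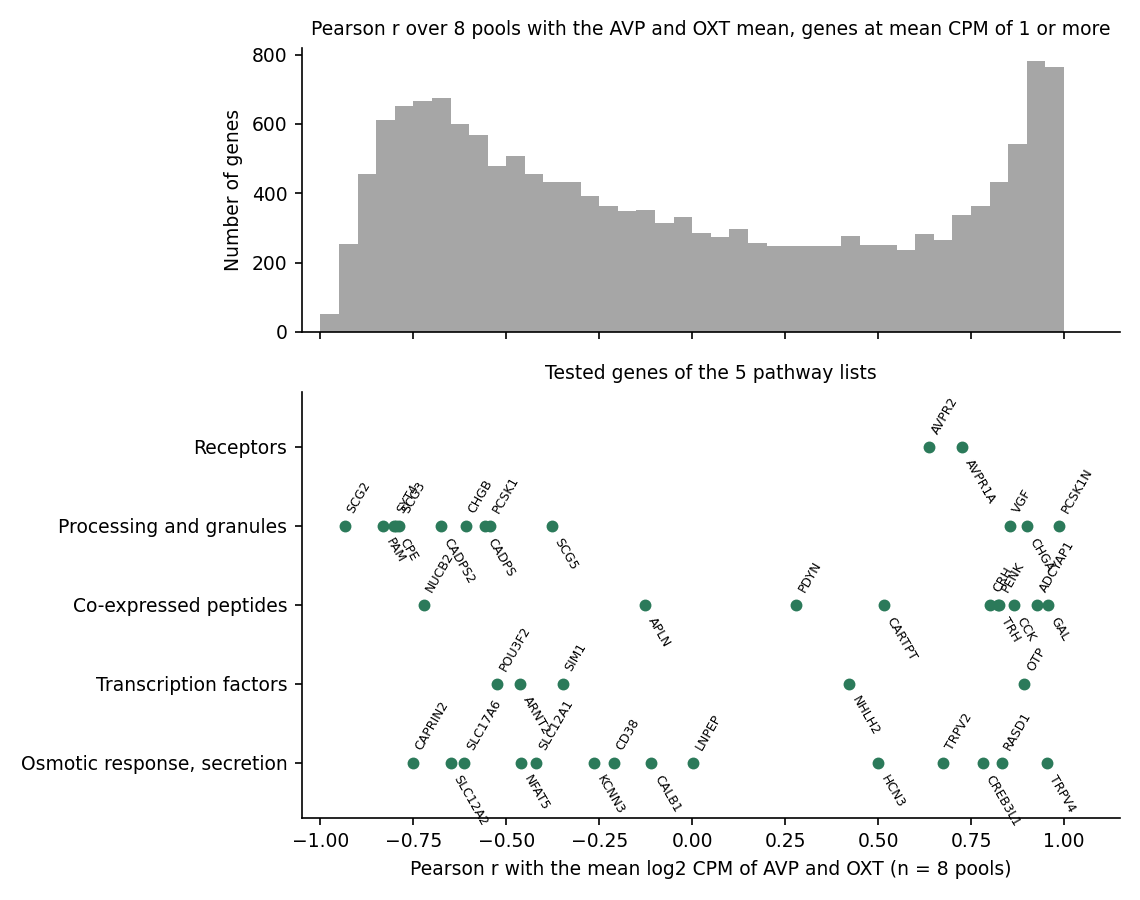
Top, number of genes by Pearson r with the mean log2 CPM of AVP and OXT over 8 pools, for 15827 tested genes with a mean of at least 1 CPM; bottom, the same r for each of the 44 tested genes of the 5 lists. Members of 1 list lie at both ends, such as PCSK1N (0.99) and SCG2 (-0.93).

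Of the 14 tested genes of the osmotic response and of hormone secretion, 0 passed, with 7 above and 7 below 0 (median log2 fold change -0.04). SLC17A6, the glutamate transporter of hypothalamic neurons, was at 0.23 (SE 0.14), SLC12A2, a chloride importer, at 0.14 (SE 0.15) and LNPEP, the enzyme that degrades oxytocin, at -0.53 (SE 0.39). CALB1, a calcium-binding protein, averaged 0.809 ± 0.111 CPM in food-restricted and 1.11 ± 0.0823 CPM in well-fed pools (SD, n = 4 each), or a log2 fold change of -0.45 (SE 0.35), the 1 listed gene whose groups did not overlap. CREB3L1, a transcription factor that drives AVP in rats, had an r of 0.78, and CAPRIN2, which binds AVP messenger RNA in rats, an r of -0.75. TRPV4, an osmosensitive channel, and RASD1, a small G protein, had an r of 0.95 and 0.83. These last 4 were named after their values were seen. Of the 14, 2 had an r of at least 0.8, beside 15.9% of all genes at a mean of 1 CPM or more. At an r of -0.8 or below there were 0, beside 8.66%. The list's median r was -0.16, where that of all tested genes was -0.10.

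Markers of the tissue and its neighbours were set beside the spread of AVP and OXT. Markers of the arcuate nucleus, a part of the labelled mediobasal hypothalamus, were present. AGRP was at 155 ± 25.9 CPM in food-restricted and 50.7 ± 10.1 CPM in well-fed pools and TBX3 at 140 ± 7.81 and 128 ± 14.8 CPM in these groups (SD, n = 4 each). Of the suprachiasmatic markers, the peptides were scarce, with VIP at 0.278 ± 0.224 CPM in food-restricted and 0.486 ± 0.230 CPM in well-fed pools (SD, n = 4 each) and PROK2 at no more than 1 count in any pool. That list summed to between 39.7 and 48.3 CPM in food-restricted and between 39.8 and 46.4 CPM in well-fed pools, most of it RGS16, with VIPR2 next at 5.66 ± 1.96 CPM in food-restricted and 5.19 ± 1.21 CPM in well-fed pools (SD, n = 4 each). Of its 8 tested members 0 reached an r of 0.8, with r from -0.56 (RORB) to 0.71 (LHX1). Pituicyte and posterior pituitary markers summed to between 26.4 and 31.5 CPM in food-restricted and between 26.3 and 29.7 CPM in well-fed pools. Most of that sum was VLDLR, at 20.6 ± 1.86 CPM in food-restricted and 21.3 ± 1.14 CPM in well-fed pools (SD, n = 4 each). In this list 0 of 4 tested members reached an r of 0.8, with r from -0.69 (VLDLR) to 0.73 (RAX). The counts of markers at an r of 0.8 or more stand beside the 15.9% of all genes at that level. Ventromedial markers had 3 of 4, and summed to between 12.02 and 39.9 CPM in food-restricted and between 11.8 and 38.2 CPM in well-fed pools. The pituitary list had 2 of 9, PITX1 (0.99) and LHB (0.93), while CGA, its most abundant member, had an r of -0.12, and it summed to between 1128 and 1701 CPM in food-restricted and between 1012 and 1833 CPM in well-fed pools.

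In the other lists, too, members differed in r. Of 13 marker lists, 12 held r of both signs, and of 75 tested markers 14 had an r of at least 0.8 and 6 of -0.8 or below, shares near the 15.9% and 8.66% of all genes. POMC had an r of 0.97 in the arcuate list, where AGRP had an r of 0.34, and HCRT, orexin, an r of 0.96 in the lateral list, where PMCH, melanin-concentrating hormone, had an r of -0.82. Lateral markers summed to between 225 and 441 CPM in food-restricted and between 239 and 371 CPM in well-fed pools. Arcuate markers summed to between 565 and 911 CPM in food-restricted and between 367 and 841 CPM in well-fed pools. CLDN5 had an r of 0.96 among endothelial markers, where PECAM1 had an r of -0.80, and they summed to between 119 and 165 CPM in food-restricted and between 122 and 141 CPM in well-fed pools. MBP and MAG had an r of 0.91 and 0.93 among oligodendrocyte markers, where MOBP had an r of -0.61, and the 6 markers used summed to between 2404 and 3954 CPM in food-restricted and between 2203 and 3876 CPM in well-fed pools. Of the 5 remaining lists, preoptic markers had 0 of 6 at an r of at least 0.8, tanycytes and ependyma 2 of 6, astrocytes 0 of 6, neurons 1 of 6 and microglia 1 of 5. Their sums lay between 18.2 and 28.5, 521 and 607, 7700 and 9044, 2701 and 3122, and 306 and 344 CPM in food-restricted pools, in that order. In well-fed pools these were between 18.7 and 24.1, 528 and 618, 8155 and 9150, 2633 and 3151, and 283 and 355 CPM. At an r of -0.8 or below these 5 lists had 0, 0, 2, 2 and 0 tested members, in the same order. Their median r was 0.03, -0.10, -0.39, -0.72 and -0.09. Single markers were picked for mention with their values in view. The part of any of these cell types in the spread of AVP and OXT was not tested.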

How the data were processed

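RNA sequencing libraries of 8 pools, each of 15 ewes, were read as raw read counts per gene, as the authors deposited them in 1 table. Per the labels, RNA was extracted with TriReagent and stranded mRNA libraries were built with a TruSeq kit. Per the submitters' processing notes, featureCounts 2.0.0, TopHat2 2.1.1, Bowtie2 2.3.5.1, SAMtools 1.9, FastQC and bcl2fastq 2.20 served, with no roles stated. The sources used here do not give the genome build, annotation, strand setting or treatment of reads matching several genes, so overlapping and near-identical genes are uncertain and no coordinates or sequences are printed. A RefSeq table (ARS-UI_Ramb_v3.0) held 28100 of the 33609 IDs and replaced 412 LOC names.

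The test used edgeR 4.0.16 under R 4.3.3: filterByExpr (minimum count 10, minimum total 15), TMM, and the quasi-likelihood F test of food-restricted against well-fed pools with Benjamini-Hochberg adjustment over all tested genes and a threshold of 0.05. Log2 CPM used a prior count of 2. The SE of a log2 fold change is its size over the root of F. Alternatives were other scalings and filters, leaving out each pool, the replicate number as a block, DESeq2 1.42.0 and limma 3.58.1 voom. The planned exact test of the AVP and OXT correlation is not given, since both genes were selected on these pools. The scripts were tested on simulated data.

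No 2 pools of a group agreed within sampling noise, with a chi-square of 21.7 to 145 per degree of freedom. AVP, OXT and the 18 gene lists were chosen with earlier results of these data known. Besides AVP, OXT and the receptors, the naming rule took the 4 members of smallest p in each of the other system lists, called genes, and the 10 most and 5 least alike genes. A marker of the oligodendrocyte list is not reported here.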

Additional observations from a re-analysis of the deposited data

Results flagged for a closer look

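PCSK1 was at 344 CPM in food-restricted pool 3, where the other 3 food-restricted pools lay between 285 and 287 CPM. The gap to its nearest neighbour was 0.971 of the group's range, above Dixon's 95% critical value for 4 samples. This was the 1 value so marked in 76 groups of 4 pools examined, where chance marks about 1 group in 20. Neither AVP nor OXT was marked in either group.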

How the results depend on the processing

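AGRP, the 1 gene called over all genes, lost its call under the replicate block (0 genes called) and without any 1 of the 8 pools (0 genes called in each case). DESeq2 called 4 genes and the first principal component as a covariate, chosen after seeing the data, 8; the other scalings and filters and limma voom called 1. The cause was not tested. No gene of the 5 system lists was called under any of the 16 alternatives. The replicate numbers did not pair the pools: same-numbered pools had correlations of their deviations between -0.37 and -0.62, and 0 of 8 pools correlated best with their own number. With the replicate block the log2 fold change was 0.38 (SE 1.05) for AVP and 0.73 (SE 2.54) for OXT, and the block changed no other call. Across all 16 alternatives it lay between -0.41 and 0.78 for AVP and between -1.06 and 1.00 for OXT, so its sign was not stable. Each value was within 1 pooled within-group SD (1.37 for AVP and 2.45 for OXT) of the value reported. That span is wide enough to hold values of either sign. With limma voom the log2 fold change was 0.40 for AVP and 0.90 for OXT. The correlation of AVP with OXT stayed between 0.993 and 0.998 under its 11 alternatives. The within-group SD lay between 1.26 and 1.49 for AVP and between 2.29 and 2.68 for OXT, and the difference in log2 ratio between -0.90 and -0.08. With 4 pools a group and an SE of 1.14 on the log2 scale, a change in OXT of 2-fold would lie within 1 SE.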
